A study of Homo sapiens with 12 samples.

Results

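The nuclear genes for subunits of the oxidative phosphorylation (OXPHOS) complexes were followed across 4 treatments of MOLM-13 cells. Members were the protein-coding genes whose symbols start as those of complex I to V subunits do (NDUFA, NDUFB, NDUFC, NDUFS and NDUFV with a number, SDHA to SDHD, UQCR, CYC1, COX4 to COX8, and ATP5F1, ATP5M, ATP5P and ATP5IF). This gave 90 of the 60668 genes counted: 39 of complex I, 4 of complex II, 10 of complex III, 17 of complex IV and 20 of complex V. Complexes were assigned by symbol, so complex I includes NDUFA4, now known as a complex IV subunit, and its paralog NDUFA4L2. Of these 90, 81 had enough counts to be tested (38, 4, 10, 11 and 18 by complex), among 13972 tested genes. MOLM-13 is an acute monocytic leukaemia line that carries an MLL fusion and a FLT3 internal tandem duplication. Cells received gilteritinib, a FLT3 kinase inhibitor, together with MI3454, an inhibitor of the menin-MLL interaction (called the combination below), gilteritinib alone, MI3454 alone, or the DMSO vehicle, for 8 days, with 3 libraries of ribosome-depleted total RNA in each group. No dose was given in the sources used here. The labels say that cells were treated in triplicate but not that the 3 libraries of a group came from separate passages, so p-values measure the spread between these libraries, which may be technical.

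Oxidative phosphorylation couples electron transfer to ATP synthesis in the inner mitochondrial membrane. Complex I takes electrons from NADH and complex II from succinate, ubiquinone carries them to complex III and cytochrome c to complex IV, which reduces oxygen, while the proton gradient built on the way drives the ATP synthase, complex V. Most subunits are made from nuclear genes and joined to a small set encoded in mitochondrial DNA, and acute myeloid leukaemia cells are known for their reliance on this pathway.

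Promoters of such genes are known for binding the transcription factors NRF1, YY1 and the ETS factor GABP. RefSeq promoter windows (GRCh38.p14, 250 bases before to 50 after the gene start) were matched by symbol for 65 of the 81 tested members and searched on both strands. The NRF1 motif (10 bases, named here without its letters) was present in 24.6% of the members' windows, against 12.4% of 9371 windows of tested protein-coding genes. The YY1 motif AAGATGGC was present in 16.9% against 5.81%, and the ETS motif CCGGAAG in 30.8% against 20.4%. The hypoxia-response core ACGTG was present in 26.2% against 26.8%. These are counts of letters and not of bound sites. The 250 bases before the RefSeq start are shown for 4 members to which the results return: ATP5PF, which stood apart under gilteritinib alone, UQCRC1, which also rose with it, NDUFB4, which fell with the combination against gilteritinib, and SDHA, which rose with the combination. The windows are chr21:25735055-25735304, minus strand (ATP5PF), chr3:48609647-48609896, minus strand (UQCRC1), chr3:120596086-120596335, plus strand (NDUFB4), and chr5:218070-218319, plus strand (SDHA). The GENCODE genes to which the coordinates below refer start further upstream, by 619 bases for ATP5PF, 1330 for UQCRC1, 27 for NDUFB4 and 79 for SDHA, so these windows lie wholly (ATP5PF, UQCRC1) or partly (NDUFB4, SDHA) within them. Capitals mark a YY1 and an ETS match in ATP5PF, an NRF1 match in UQCRC1, and the NRF1 matches in NDUFB4 and SDHA.
ATP5PF: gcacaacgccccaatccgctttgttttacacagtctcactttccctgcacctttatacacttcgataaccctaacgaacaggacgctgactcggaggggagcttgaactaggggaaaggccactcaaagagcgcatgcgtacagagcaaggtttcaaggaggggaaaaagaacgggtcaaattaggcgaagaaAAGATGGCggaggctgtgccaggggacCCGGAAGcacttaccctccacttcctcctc
UQCRC1: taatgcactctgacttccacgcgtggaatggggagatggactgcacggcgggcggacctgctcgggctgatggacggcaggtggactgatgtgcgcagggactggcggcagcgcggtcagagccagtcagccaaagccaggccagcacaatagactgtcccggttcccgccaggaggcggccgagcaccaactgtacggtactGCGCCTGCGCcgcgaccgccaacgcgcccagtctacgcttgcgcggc
NDUFB4: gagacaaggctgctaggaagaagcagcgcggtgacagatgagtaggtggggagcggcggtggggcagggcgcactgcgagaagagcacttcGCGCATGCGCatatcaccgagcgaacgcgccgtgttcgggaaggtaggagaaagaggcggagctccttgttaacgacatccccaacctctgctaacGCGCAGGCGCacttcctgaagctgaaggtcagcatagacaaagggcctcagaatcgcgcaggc
SDHA: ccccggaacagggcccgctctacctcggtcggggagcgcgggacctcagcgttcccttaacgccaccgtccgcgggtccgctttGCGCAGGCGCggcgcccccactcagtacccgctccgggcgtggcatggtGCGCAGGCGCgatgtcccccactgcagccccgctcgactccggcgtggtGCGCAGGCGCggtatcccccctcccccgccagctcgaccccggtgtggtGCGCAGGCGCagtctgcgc
The marked matches do not overlap. SDHA carried 4 NRF1 matches, all with the same letters, and NDUFB4 carried 2. Whether a motif in the window goes with the direction of change was not tested.

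Libraries held 6472940 to 12051457 counts in genes. Levels are given as counts-per-million (CPM) values after TMM scaling of library size, a scaling that assumes most genes not to differ. The myeloid genes CD33, SPI1, CEBPA and PTPRC were present in every library (lowest CD33 value 86.3 CPM). CD2, MS4A1, HBB and ALAS2, which define T cells, B cells and erythroid cells, had no read in any, and CD3D reached 3.15 CPM and the epithelial marker KRT18 13 CPM at most. Levels of the myeloid gene MPO differed widely between groups: MPO averaged 284 CPM with the combination, 58.6 with gilteritinib, 608 with MI3454 and 33.3 with DMSO. Fewer cells of one state and less RNA per cell cannot be told apart in such bulk samples. In each group 1 library had the highest share of RN7SL1, a non-coding RNA: combination 1, gilteritinib 2, MI3454 3 and DMSO 2. These same libraries were the highest of their group for 72.8%, 61.7%, 66.7% and 59.3% of the tested members, in that order, against 37.8%, 39.1%, 38.6% and 40.4% of all tested genes. Reads outside annotated exons made up 28.5% to 36.5% of uniquely placed reads in the combination, 15.6% to 17.8% with gilteritinib, 17.4% to 25.5% with MI3454 and 16.6% to 20.4% with DMSO. The part of the RN7SL1 feature in the results below was not tested beyond the values given without these 4 libraries. Leaving them out kept reads assigned to no gene at 32.7% and 36.5% in the combination, and at 17.2% and 20.4% with DMSO. The shares of reads assigned to no gene or fitting more than 1 cannot be told apart from the combination. Their part in the results was not tested.

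Per kilobase of principal transcript, the members with the highest values over all libraries were ATP5F1B, the catalytic beta subunit of ATP synthase (390 CPM per kb), NDUFB9, an accessory subunit of complex I (331), CYC1, the cytochrome c1 of complex III (325), and COX4I1, a regulatory subunit of complex IV (277). Where a gene has several principal transcripts of the best rank, the longest was taken, and this order depends on that choice. ATP5F1A and UQCRB, for example, were divided by 5818 and 5575 bases, and which transcripts the cells used was not tested. Summed over its members, complex V held 2376, 2150 and 2025 CPM in the combination, 2779, 2909 and 2721 CPM with gilteritinib, 2516, 2230 and 2614 CPM with MI3454, and 2494, 2532 and 2366 CPM with DMSO. Its gilteritinib libraries thus all lay above, and all but 1 of its combination libraries below, every DMSO library. Complex II held 200 to 205 CPM in the combination, 182 to 193 CPM with gilteritinib, 171 to 212 CPM with MI3454 and 162 to 198 CPM with DMSO. The members as a whole took 0.698% to 0.750% of counts in the combination, 0.767% to 0.806% with gilteritinib, 0.659% to 0.752% with MI3454 and 0.675% to 0.702% with DMSO.

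**Figure D1:**
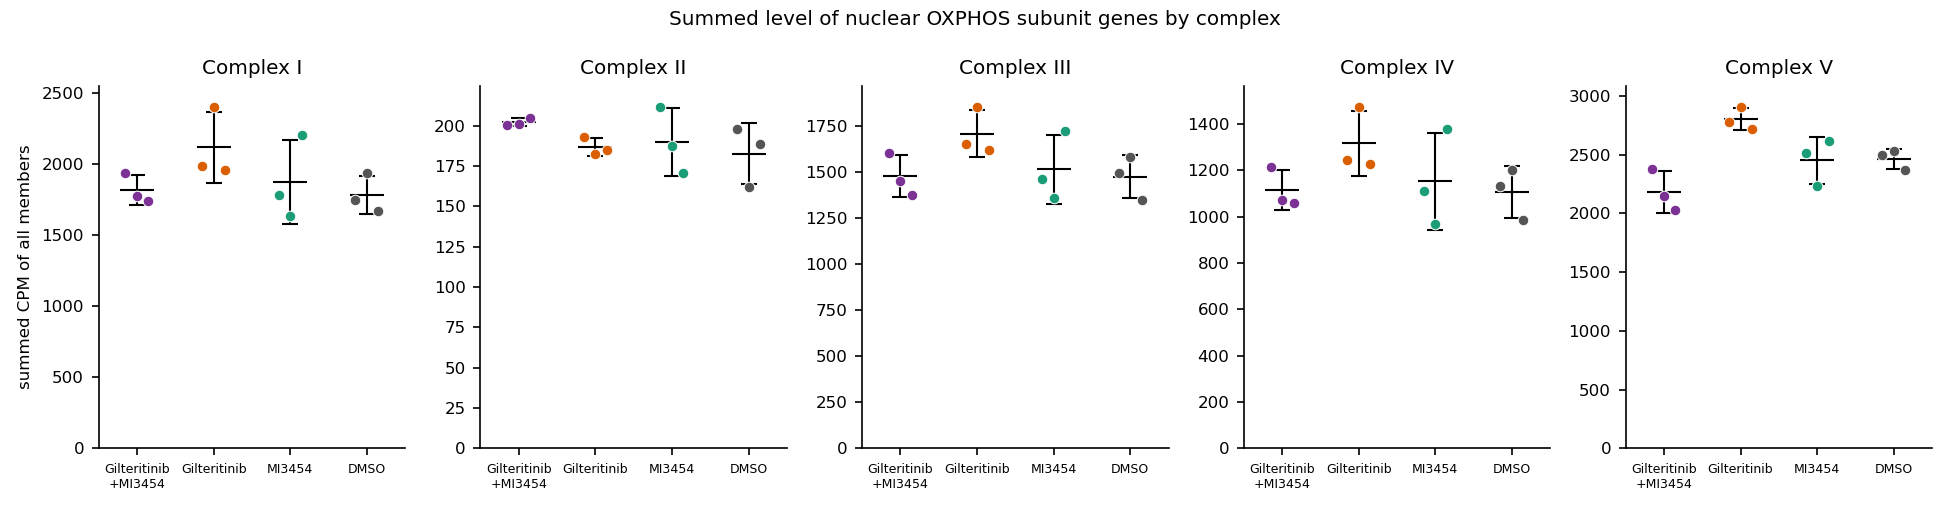
Summed CPM of the members of each complex (y axis) in each library (points) by treatment (x axis), with the mean and SD of 3 libraries. In complex V the gilteritinib libraries lie between 2721 and 2909 CPM, above the combination libraries at 2025 to 2376 CPM and the DMSO libraries at 2366 to 2532 CPM.

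Several complex IV subunits have tissue forms, and the line used the ubiquitous ones. COX4I1 had 270, 233 and 224 CPM in the combination, 252, 333 and 264 CPM with gilteritinib, 213, 190 and 291 CPM with MI3454, and 207, 249 and 173 CPM with DMSO. Its hypoxia- and lung-linked counterpart COX4I2 had no read in any of the 12 libraries, and neither had COX6A2, the muscle form beside COX6A1, or COX7B2 beside COX7B. A count of 0 over all libraries pooled allows a level of up to 0.0258 CPM (3 counts, counting error only). COX6B2, known from testis, had 7 counts in all, and the muscle form COX7A1 and COX8C had 1 each. The readthrough genes ATP5MF-PTCD1 (14 counts) and NDUFC2-KCTD14 (0) and the retrocopy ATP5MGL (22) were also too low to test, which accounts for the 9 members left out. Of the exon bases of ATP5MF-PTCD1 and NDUFC2-KCTD14, 93.8% and 100% are shared with other genes. For COX6A2 and COX6B2 these shares are 46% and 30.9%. Reads from shared bases may not be counted for a gene, so these low counts do not show its level. UQCRHL, a retrocopy of the hinge protein gene UQCRH, was tested at 334 counts and passed in no comparison.

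The first question of the design is what each treatment changed relative to DMSO. With the combination, 10 members were higher and 13 lower than with DMSO, of 81 tested (edgeR quasi-likelihood test, Benjamini-Hochberg adjusted p under 0.05, called below by this rule throughout). Among all tested genes, 29.2% were higher and 28.4% lower. The members' shares were 12.3% and 16%, and their median log2 change was -0.02, beside -0.00 for all tested genes. By complex, 6 members rose and 6 fell in complex I (6 and 5 without NDUFA4 and NDUFA4L2), 1 rose and none fell in complex II, 2 rose and 1 fell in complex III, none rose and 2 fell in complex IV, and 1 rose and 4 fell in complex V. Scaling to total counts instead of TMM gave 16 higher and 4 lower (33% and 23% of all tested genes), with the median of all genes shifted to 0.10 and that of the members to 0.08. With the replicate block there were 10 of each (29.9% and 28.7% of all tested genes).

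**Figure D2:**
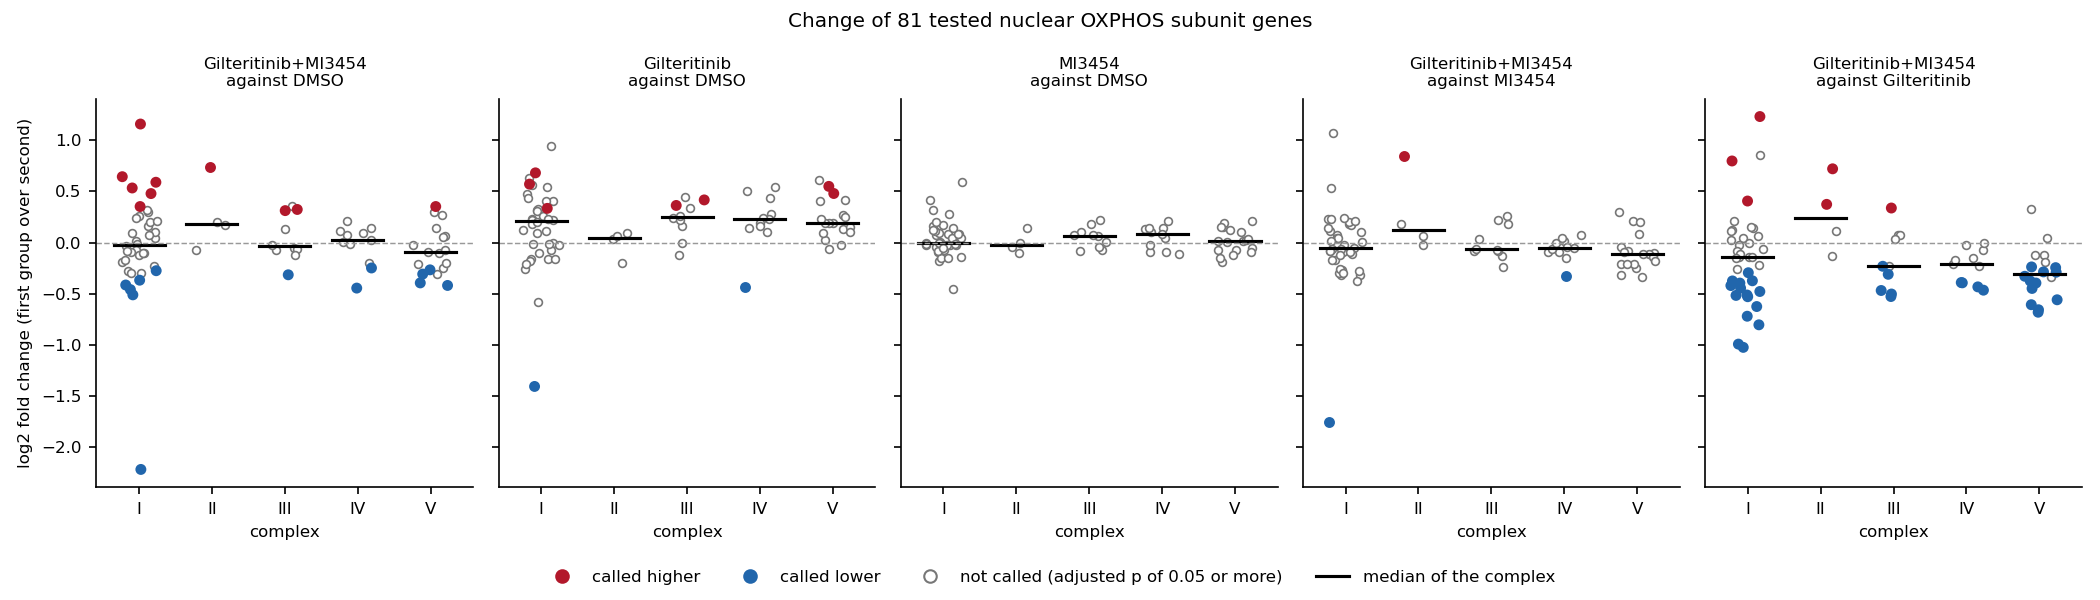
Log2 fold change (y axis, first group over second) of the 81 tested members by complex (x axis) in 5 comparisons; red and blue points passed the test, open points did not, and bars are medians. The combination against gilteritinib has the most blue points, 36, and MI3454 against DMSO has no coloured point.

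The largest change was in NDUFA4L2 (ENSG00000185633.10, GRCh38 chromosome 12, 57234903 to 57240715, minus strand), a paralog of the complex IV subunit NDUFA4 that is known as a hypoxia-induced gene. It had 1.47, 1.80 and 2.55 CPM in the combination, 3.42, 3.27 and 3.19 CPM with gilteritinib, 6.91, 4.73 and 7.59 CPM with MI3454, and 7.99, 10.9 and 7.44 CPM with DMSO. The groups followed the order combination, gilteritinib, MI3454, DMSO, and of neighbouring groups only MI3454 and DMSO overlapped. NDUFA4L2 fell 4.66-fold with the combination (log2 change -2.22 ± 0.26 SE, edgeR adjusted p = 1.6e-06) and 2.66-fold with gilteritinib (-1.41 ± 0.20, adjusted p = 0.000606), both against DMSO, and both calls held in every alternative tried. With MI3454 the change was -0.46 ± 0.23 (adjusted p = 0.202). Its log2 change in the combination was -1.75 ± 0.28 against MI3454 (edgeR adjusted p = 0.000972) and, against gilteritinib, -0.81 ± 0.26 (adjusted p = 0.017), a call lost without gilteritinib 1, combination 1 or combination 2, without the 4 libraries highest in RN7SL1, and with DESeq2. The level rests on 599 counts over the 12 libraries. NDUFA4 itself, at a far higher level, had 77.9, 76.1 and 82.7 CPM in the combination, 70.7, 70.3 and 72.2 CPM with gilteritinib, 70.9, 65.7 and 70.6 CPM with MI3454, and 74.9, 60.8 and 64.6 CPM with DMSO, and passed in no comparison (combination against DMSO 0.24 ± 0.11, edgeR adjusted p = 0.0724).

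COX7A2L, also known as SCAF1, which joins complexes III and IV into supercomplexes, was the other member lower with both gilteritinib and the combination. It had 63.7, 67.9 and 62.0 CPM in the combination, 70.2, 58.7 and 66.3 CPM with gilteritinib, 88.3, 79.5 and 76.4 CPM with MI3454, and 93.6, 78.0 and 92.3 CPM with DMSO. Every library with gilteritinib in it, alone or combined, lay below every library without it. The log2 change against DMSO was -0.45 ± 0.11 in the combination (edgeR adjusted p = 0.0022, held in every alternative) and -0.43 ± 0.11 with gilteritinib (adjusted p = 0.0218, lost without DMSO 1, DMSO 3, gilteritinib 2 or gilteritinib 3). Against MI3454 the combination changed by -0.33 ± 0.10 (edgeR adjusted p = 0.025), lost without MI3454 1 or any 1 combination library, with total counts and with the replicate block. Of its paralogs, COX7A2 was also called lower in the combination against DMSO, at a log2 change of -0.25 ± 0.10 (edgeR adjusted p = 0.0499). That call was lost without 5 of the 6 libraries. COX7A1 was at or near 0.

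SDHA (ENSG00000073578.17, chromosome 5, 218241 to 256700, plus strand), the flavoprotein that oxidises succinate in complex II, rose with the combination against each of the other 3 groups. It had 11.8, 10.8 and 10.9 CPM in the combination, 5.67, 7.88 and 7.14 CPM with gilteritinib, 6.68, 5.65 and 6.40 CPM with MI3454, and 4.90, 8.52 and 6.68 CPM with DMSO. The combination libraries all lay above those of the other 3 groups, which overlapped each other. SDHA rose 1.67-fold against DMSO (log2 change 0.74 ± 0.20 SE, edgeR adjusted p = 0.00416), 1.80-fold against MI3454 (0.85 ± 0.16, adjusted p = 0.00254) and 1.65-fold against gilteritinib (0.72 ± 0.16, adjusted p = 0.00142), and these 3 calls held in every alternative. The gene has close pseudogene copies that can take or void its reads and its level rests on 893 counts over the 12 libraries. The other complex II genes did not pass against DMSO: SDHB, the iron-sulfur subunit, changed by -0.07 ± 0.11, and the membrane anchors SDHC and SDHD by 0.20 ± 0.11 and 0.17 ± 0.16.

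Among the other members that rose with the combination, NDUFB9 had 292, 235 and 228 CPM in the combination, 224, 356 and 226 CPM with gilteritinib, 213, 187 and 357 CPM with MI3454, and 154, 211 and 137 CPM with DMSO. All 6 libraries with gilteritinib in them lay above the DMSO libraries, and the log2 change was 0.59 ± 0.15 in the combination (edgeR adjusted p = 0.00248) and 0.68 ± 0.19 with gilteritinib (adjusted p = 0.0341, lost without DMSO 1, DMSO 3 or gilteritinib 2). ATP5F1E, the epsilon subunit of the ATP synthase head, had 72.2, 61.0 and 62.1 CPM in the combination, 66.2, 84.0 and 63.6 CPM with gilteritinib, and 51.0, 56.5 and 45.5 CPM with DMSO. It was higher by 0.35 ± 0.12 and 0.48 ± 0.13 in the combination and with gilteritinib (edgeR adjusted p = 0.0169 and 0.026), and both calls were lost without DMSO 1 or DMSO 3. The call in the combination was also lost without combination 1 or with no filter, and that with gilteritinib without gilteritinib 2. Of the exon bases of NDUFB9 and ATP5F1E, 21% and 23.2% overlap genes on the other strand, and whether counting used strand is not known, so these counts are uncertain too. NDUFV3, an accessory subunit of the NADH-binding module, was the third member higher in both (0.35 ± 0.11 and 0.33 ± 0.10). NDUFV2 and NDUFA13 of complex I, at 4.51 to 6.95 and 6.65 to 7.55 CPM in the combination and 3.09 to 3.60 and 3.81 to 5.78 CPM with DMSO, rose by 0.64 ± 0.24 and 0.53 ± 0.21. Both calls were lost with DESeq2 and without DMSO 1 or combination 3. NDUFA7 rose by 1.16 ± 0.36, on 160 counts over the 12 libraries. These last 3 genes are low, and 28.4%, 21% and 33.5% of the exon bases of NDUFV2, NDUFA13 and NDUFA7 are shared with another annotated gene, so their counts are uncertain. UQCRB and UQCR11 of complex III rose by 0.31 ± 0.11 and 0.32 ± 0.14, both lost without any 1 of the combination libraries or without DMSO 3, and that of UQCR11 also without DMSO 1, with the replicate block and with DESeq2.

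Members that fell with the combination included 2 of the 3 genes for subunit c, the proton-carrying ring of ATP synthase. ATP5MC1 had 31.6, 25.9 and 25 CPM in the combination, 42.5, 42.4 and 38.0 CPM with gilteritinib, 31.4, 34 and 39.6 CPM with MI3454, and 37.2, 40.5 and 33.0 CPM with DMSO. The combination libraries all lay below those of DMSO and gilteritinib and overlapped those of MI3454 only at their highest value. ATP5MC1 fell by 0.42 ± 0.13 on the log2 scale against DMSO (edgeR adjusted p = 0.0113, lost without combination 2 or 3), ATP5MC3 by 0.27 ± 0.10 (adjusted p = 0.0313, lost without DMSO 1, DMSO 3, combination 2 or combination 3), and ATP5MC2, at a log2 change of -0.21 ± 0.14, did not pass. NDUFA8 fell by 0.51 ± 0.16 (edgeR adjusted p = 0.012, lost without combination 1 or 2), NDUFB4 by 0.46 ± 0.16 (adjusted p = 0.0179, lost without DMSO 1, combination 2 or combination 3), CYC1 by 0.32 ± 0.12 (adjusted p = 0.0317, lost without DMSO 2, combination 2 or combination 3), and ATP5F1D, the delta subunit of the head, by 0.40 ± 0.16 (adjusted p = 0.0389, lost without DMSO 2, combination 2 or combination 3). Without combination 2 or 3 no complex V member was called lower. Total-count scaling ended the calls of NDUFA8, NDUFB4, CYC1, ATP5F1D, ATP5MC3 and COX7A2 but not that of ATP5MC1. The replicate block ended those of ATP5MC3 and COX7A2. ATP5IF1, which inhibits ATP hydrolysis by the synthase, had a log2 change of 0.27 ± 0.16 and did not pass.

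Leaving out 1 library moved these counts. The members higher with the combination numbered 5 to 17, with the lowest count without combination 1 (26.9% of all tested genes higher) and the highest without DMSO 2 (30.2%). Those lower numbered 3 to 17, with the lowest without combination 2 (23.7% of all tested genes lower) and the highest without DMSO 2 (31.1%). The members' median lay between -0.10 and 0.04. Without the 4 libraries highest in RN7SL1 there were 15 higher and 20 lower (30.4% and 31.7% of all tested genes), and 22 of the 23 members called with all libraries were among them.

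**Figure D3:**
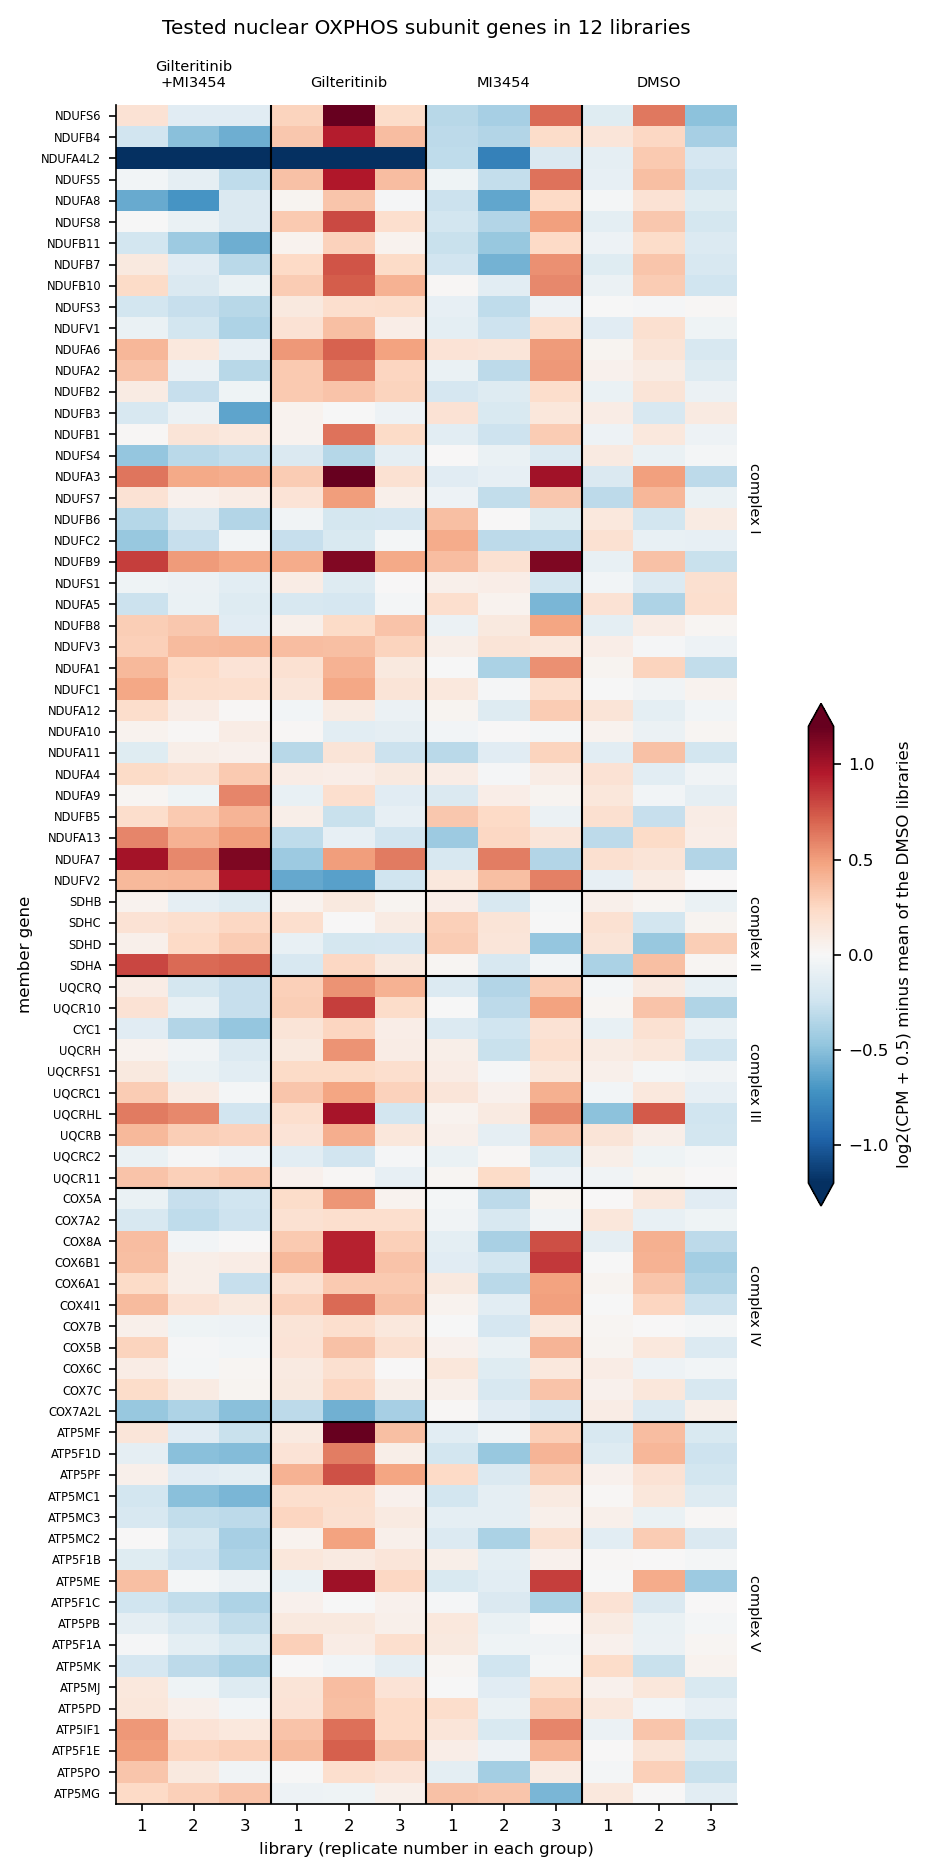
Log2 level (CPM with a small constant added) of all but 1 of the tested members (rows, by complex and ordered within it by the change in the combination against gilteritinib) in the 12 libraries (columns), minus the mean of the DMSO libraries. NDUFA4L2 is below DMSO in all 6 libraries with gilteritinib in them (1.47 to 3.42 CPM), and SDHA is high in the 3 combination libraries.

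With gilteritinib alone most members had a log2 change above 0 and few passed the test. The median log2 change was 0.20, beside -0.00 for all tested genes, and 61 of 81 members had a change above 0. The test called 7 members higher and 2 lower, while 6.92% of all tested genes were higher and 8.18% lower. The 7 were NDUFA6, NDUFB9 and NDUFV3 of complex I, UQCRC1 and UQCRQ of complex III, and ATP5F1E and ATP5PF of complex V, and the 2 lower were NDUFA4L2 and COX7A2L. After the group means were taken off, gilteritinib and DMSO libraries of the same number had a correlation over genes of 0.18, 0.46 and 0.14, but gilteritinib 1 with DMSO 3 at 0.26 and gilteritinib 3 with DMSO 1 at 0.13, so that only number 2 stood out. Gilteritinib 2 and DMSO 2 are also the libraries highest in RN7SL1 of their groups. Such libraries correlated across numbers too: MI3454 3 with DMSO 2 at 0.58, and combination 1 with MI3454 3 at 0.40, DMSO 2 at 0.32 and gilteritinib 2 at 0.24. A pairing by number and this library feature cannot be told apart for gilteritinib against DMSO. A fit that blocked on the number called 40 members higher and the same 2 lower, while 17.7% of all tested genes were higher and 17.6% lower. Under the block, 17 of the members called higher belonged to complex I, 6 to complex III, 6 to complex IV, 11 to complex V and none to complex II. Without the 4 libraries highest in RN7SL1, 30 members were higher and 4 lower (15.3% and 15.2% of all tested genes). The unblocked count was 28 higher without DMSO 2, where 13.8% of all tested genes were higher, and 1 higher without DMSO 1, DMSO 3 or gilteritinib 2, where the share of all tested genes was 3.83%, 4.05% and 4.5%. The members' median was 0.13 to 0.26 with 1 library left out.

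ATP5PF (ENSG00000154723.12, chromosome 21, 25716503 to 25735673, minus strand), coupling factor 6 of the peripheral stalk of ATP synthase, had 35.7, 31.1 and 31.3 CPM in the combination, 45.5, 58.2 and 47.5 CPM with gilteritinib, 40.3, 30.2 and 41.9 CPM with MI3454, and 35.3, 38.5 and 29.1 CPM with DMSO. The gilteritinib libraries lay above every other library, and the other 3 groups overlapped. It rose with gilteritinib by 0.55 ± 0.14 (edgeR adjusted p = 0.0175, lost without DMSO 1, DMSO 3 or gilteritinib 2). Of its exon bases 23.1% overlap GABPA or JAM2 on the other strand, and reads of the 2 strands may not be told apart here. NDUFA6 (ENSG00000184983.11, chromosome 22, 42085525 to 42090955, minus strand), an accessory subunit of complex I, had 33.8, 27.9 and 23.8 CPM in the combination, 36.9, 42.0 and 35.7 CPM with gilteritinib, 28.6, 28.3 and 36.6 CPM with MI3454, and 26.1, 28.4 and 22.3 CPM with DMSO. Its gilteritinib libraries lay above those of the combination and of DMSO, and it rose by 0.57 ± 0.13 (adjusted p = 0.00969), a call that held in every alternative. UQCRQ, an accessory subunit of complex III, rose by 0.42 ± 0.11 (adjusted p = 0.0234) and UQCRC1, a core protein of that complex, by 0.36 ± 0.11 (adjusted p = 0.0403), and both calls were lost without DMSO 1, DMSO 3, gilteritinib 2 or gilteritinib 3, that of UQCRC1 also without gilteritinib 1. UQCRQ shares 20.8% of its exon bases with a gene on the other strand and has the same limit.

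**Figure D4:**
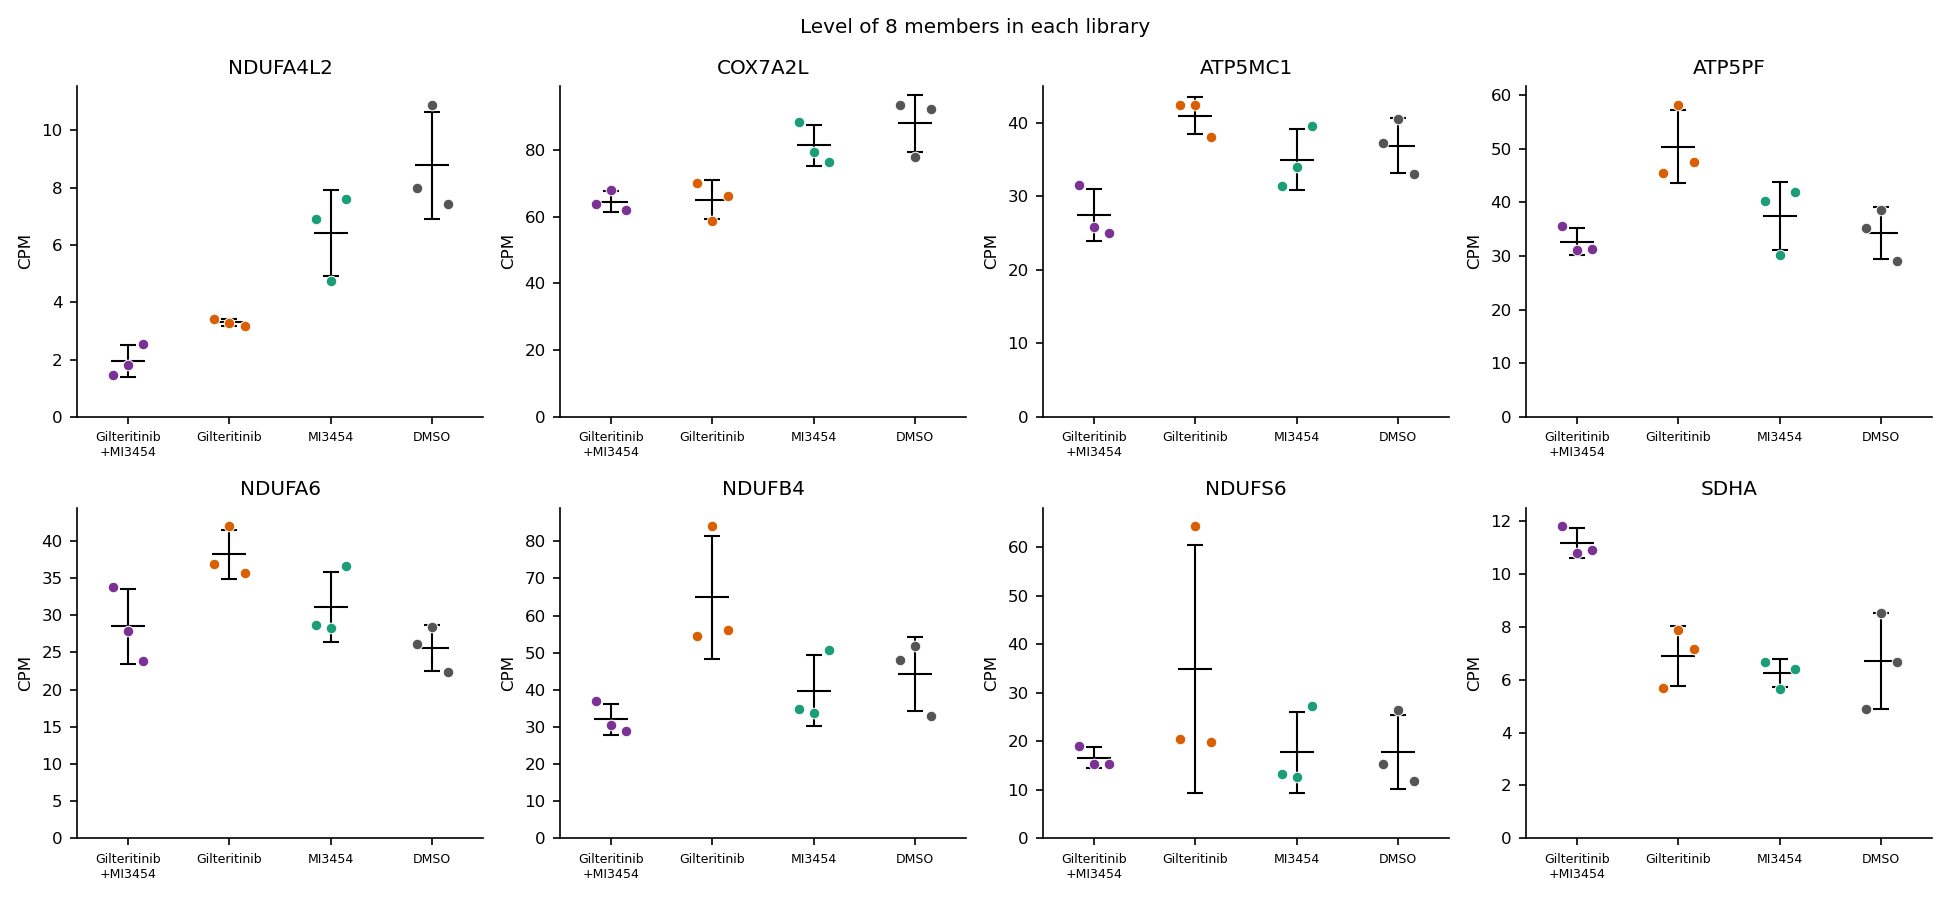
CPM (y axis, from 0) of 8 members in each library (points) by treatment (x axis), with mean and SD of 3 libraries. NDUFA4L2 is lowest in the combination and then gilteritinib, SDHA is above all other libraries in the combination (10.8 to 11.8 CPM), and NDUFS6 has a single gilteritinib library at 64.3 CPM.

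With MI3454 alone no member was called higher or lower against DMSO (edgeR, 0 of 81), while 10.1% of all tested genes were higher and 8.95% lower. With the replicate block the count was again 0 each way (6.44% and 5.57% of all tested genes), and without the 4 libraries highest in RN7SL1 it was 1 higher and 0 lower (13.8% and 14.5%). One member had an unadjusted p under 0.05, and DESeq2 called 1 member higher and none lower. The log2 changes ran from -0.46 for NDUFA4L2 to 0.59 for NDUFB9, with a median of 0.01. NDUFB9 had an adjusted p of 0.0978 in edgeR, and its MI3454 values of 213, 187 and 357 CPM overlapped the DMSO values of 154, 211 and 137 CPM. Adding gilteritinib to MI3454 changed few members: against MI3454 the combination had 1 member higher, SDHA, and 2 lower, NDUFA4L2 and COX7A2L, while 14.1% of all tested genes were higher and 15.1% lower. Without MI3454 3 these counts were 12 and 4 (17.2% and 19.1% of all tested genes), without the 4 libraries highest in RN7SL1 they were 11 and 7 (18.3% and 20.7% of all tested genes), with total counts 4 and 1 (17.6% and 10.3%), and with the replicate block 1 and 1 (10.6% and 11.1% of all tested genes).

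Against gilteritinib alone, the combination had the most member calls of any comparison, 6 higher and 36 lower of 81, while 30.1% of all tested genes were higher and 30.3% lower. The median log2 change was -0.22, beside 0.00 for all tested genes. In complex V, 12 of 18 tested members fell and none rose, with a median of -0.31. In complex I, 15 of 38 fell and 3 rose (14 of 36 and 3 without NDUFA4 and NDUFA4L2), in complex III 5 of 10 fell and 1 rose, in complex IV 4 of 11 fell and none rose, with all 11 below 0 under TMM scaling, and in complex II none fell and 2 of 4 rose. Of the 36 members that fell, 11 were also lower in the combination than with DMSO and 25 were not called against DMSO in either direction. This comparison shares its gilteritinib libraries with that of gilteritinib against DMSO, so the 2 are not independent. Total-count scaling, which moved the median of all genes to 0.13, gave 13 higher and 25 lower, while 35.7% of all tested genes were higher and 22.6% lower, and moved the members' median to -0.09. Leaving out 1 library gave 23 to 40 lower, the lowest count without combination 3, where 26.8% of all tested genes were lower, and 6 to 8 higher, with the median between -0.30 and -0.16. Without the 4 libraries highest in RN7SL1 there were 8 higher and 43 lower (31.6% and 32.6% of all tested genes), and with the replicate block 6 and 35 (29.6% and 29.2%).

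NDUFB4, an accessory subunit of the complex I membrane arm, had 36.9, 30.4 and 28.8 CPM in the combination, 54.5, 84.0 and 56.2 CPM with gilteritinib, 34.8, 33.8 and 50.8 CPM with MI3454, and 48.0, 51.7 and 32.9 CPM with DMSO. The gilteritinib libraries all lay above those of the other groups, and the combination was 1.99-fold lower than gilteritinib (log2 change -0.99 ± 0.15, edgeR adjusted p = 6.98e-05). NDUFS6, an accessory subunit of the peripheral arm, had the largest decrease, -1.03 ± 0.35 (adjusted p = 0.0211), and gilteritinib 2 stood apart: the values were 19.1, 15.3 and 15.3 CPM in the combination and 20.4, 64.3 and 19.8 CPM with gilteritinib, and the call was lost without gilteritinib 2, combination 2 or combination 3 and with DESeq2. NDUFS5 had a log2 change of -0.72 ± 0.14 (adjusted p = 0.000677), at 33.9 to 40.9 CPM in the combination and 53.6 to 82.1 CPM with gilteritinib. Core subunits of complex I carry the electron path, and of these NDUFS3, NDUFS8 and NDUFV1 fell and NDUFV2 rose. NDUFS3 shares 22.4% of its exon bases with other genes.

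In ATP synthase the decrease reached most parts of the enzyme. Of the head, 4 of 5 members fell: the alpha, beta, gamma and delta subunits ATP5F1A, ATP5F1B, ATP5F1C and ATP5F1D changed by -0.29 ± 0.09, -0.38 ± 0.09, -0.33 ± 0.07 and -0.66 ± 0.14 (edgeR adjusted p = 0.0157, 0.00304, 0.00161 and 0.00103), while ATP5F1E, at -0.12 ± 0.11, did not pass. All 3 subunit c genes fell: ATP5MC1 by 0.56 ± 0.11, ATP5MC2 by 0.40 ± 0.13 (adjusted p = 0.0149, lost without combination 3) and ATP5MC3 by 0.45 ± 0.08. Of the peripheral stalk 2 of 4 fell, ATP5PF and ATP5PB, and of the other membrane subunits 3 of 5. The inhibitor ATP5IF1 changed by -0.12 ± 0.13 and did not pass. Leaving out combination 3 lowered the complex V count to 7 of 18, and total-count scaling lowered it to 8.

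In complex III, CYC1 had 378, 325 and 301 CPM in the combination and 461, 497 and 439 CPM with gilteritinib, and fell by 0.47 ± 0.10 (edgeR adjusted p = 0.00123), and UQCRQ, at 36.7 to 47.6 CPM in the combination and 54.5 to 65.4 CPM with gilteritinib, fell by 0.53 ± 0.11 (adjusted p = 0.000743). UQCRH fell by 0.31 ± 0.11 (adjusted p = 0.0272), a call lost without gilteritinib 2, combination 2 or combination 3 and with total counts. In complex IV, COX7A2 had 121, 112 and 117 CPM in the combination and 158, 159 and 159 CPM with gilteritinib and fell by 0.43 ± 0.07 (adjusted p = 0.000175), COX5A fell by 0.47 ± 0.11 (adjusted p = 0.00249), and COX6B1 and COX8A fell by 0.39 ± 0.14 and 0.39 ± 0.16, both lost without gilteritinib 2, combination 2 or combination 3 and with total counts, and in both genes the 2 groups of libraries overlapped. COX8A shares 34.5% of its exon bases with another annotated gene. The 6 members that were higher than with gilteritinib were SDHA, NDUFA13 (0.80 ± 0.18), NDUFV2 (1.23 ± 0.25), NDUFB5 (0.41 ± 0.09), UQCR11 (0.34 ± 0.11) and SDHD (0.37 ± 0.09). SDHD had 35.7, 40.6 and 42.4 CPM in the combination and 32.1, 29.6 and 29.8 CPM with gilteritinib, and NDUFB5 had 65.6, 70.2 and 75.3 CPM in the combination and 59.3, 46.8 and 53.0 CPM with gilteritinib. Within complex II no member thus fell in any of these comparisons.

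Whether both agents together differed from the sum of their single log2 changes was tested in all 12 libraries as an interaction, the combination minus gilteritinib, less MI3454 minus DMSO. The median over members was -0.29, beside -0.02 for all tested genes. It was -0.13 without MI3454 3, -0.19 without gilteritinib 2 and -0.15 with total counts, and -0.36 to -0.13 over all fits with 1 library left out. The test called 3 members lower and none higher (edgeR; 20 members at an unadjusted p under 0.05 in either direction), while 6.55% of all tested genes were higher and 8.74% lower. These 3 were ATP5PF (-0.74 ± 0.20, edgeR adjusted p = 0.0211), NDUFA6 (-0.69 ± 0.20, adjusted p = 0.0319) and ATP5MC3 (-0.41 ± 0.12, adjusted p = 0.0341). Each had its highest mean with gilteritinib alone, ATP5MC3 with 125, 116 and 115 CPM in the combination, 171, 164 and 154 CPM with gilteritinib, 132, 133 and 149 CPM with MI3454, and 149, 135 and 144 CPM with DMSO. SDHA, with an interaction of 0.81 ± 0.28, did not pass (adjusted p = 0.0591). The number lower was 0 to 10 with 1 library left out, and 0 without DMSO 3, gilteritinib 2, combination 2 or combination 3, where 6.4%, 6.05%, 5.3% and 5.12% of all tested genes were lower. It was 16, with 1 higher, without the 4 libraries highest in RN7SL1 (14.1% and 10.2% of all tested genes), and with the replicate block 1 and 0 (7.15% and 5.43%).

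Genes that work beside the nuclear subunits were counted in the same fits from companion lists. Of all tested genes, 29.2% were higher and 28.4% lower in the combination against DMSO, and 30.1% and 30.3% against gilteritinib. With gilteritinib against DMSO these shares were 6.92% and 8.18%, and 17.7% and 17.6% with the replicate block. In the other settings named for these lists, the share lower ran from 23% to 31.7% for the combination against DMSO and from 22.6% to 32.6% against gilteritinib. The 13 subunits encoded in mitochondrial DNA were all lower in the combination than with gilteritinib, with a median log2 change of -2.73, and 5 were lower than with DMSO, with a median of -0.89 (1 without DMSO 2, 12 without DMSO 3, and 10 with the replicate block). Against DMSO, gilteritinib gave no call among them (edgeR; 11 at an unadjusted p under 0.05) at a median of 1.87, and with the replicate block all 13 were higher. MT-ND2, a complex I subunit, had 24.1, 17.4 and 17.7 CPM in the combination, 65.1, 1332 and 77.4 CPM with gilteritinib, 35, 20.5 and 101 CPM with MI3454, and 26.6, 167 and 18 CPM with DMSO. Gilteritinib 2 and DMSO 2 were thus far above their groups. MT-ND2 had the largest change of the 13 against gilteritinib (-4.62 ± 0.92), and MT-CO1, the most abundant, the smallest (-0.39 ± 0.13). MT-CO1 had 4972, 4960 and 5331 CPM in the combination and 5717, 8340 and 6085 CPM with gilteritinib. Against DMSO it changed by -0.14 ± 0.13 and did not pass. The 13 genes took 0.793% to 0.857% of counts in the combination, 1.02% to 2.77% with gilteritinib and 0.754% to 1.31% with DMSO. Without the 4 libraries highest in RN7SL1 the 13 were all still lower against gilteritinib (median -1.30), 2 were lower against DMSO (median -0.06), and all 13 were higher with gilteritinib than with DMSO (median 1.44). MT-ATP8 and MT-ND3 were the other mitochondrial genes with the largest called change against DMSO, at -1.42 ± 0.56 and -1.33 ± 0.47.

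Mitochondrial ribosomal protein genes, which serve translation of those subunits, were mostly lower in the combination. Of 76 tested, 52 were lower and none higher in the combination than with DMSO (median -0.42), beside 28.4% and 29.2% of all tested genes. Against gilteritinib 59 were lower and 1 higher (median -0.52), beside 30.3% and 30.1%. Without combination 3 the count against DMSO was 35, and with total counts it was 37. Of 84 cytosolic ribosomal protein genes, 33 fell and none rose against DMSO (median -0.28), with 50 lower when the 4 RN7SL1-high libraries were left out, 13 without combination 3 and 51 without DMSO 3, and 60 fell and 2 rose against gilteritinib (median -0.38). With gilteritinib against DMSO the 2 lists had 2 higher and 2 lower, and 0 higher and 2 lower (with the replicate block 15 and 8, and 29 and 3). The difference between these lists and the members was not tested, and the cytosolic genes have many processed copies that can take their reads.

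Of 49 tested OXPHOS assembly factors, 17 were lower and 7 higher in the combination than with DMSO, while 28.4% of all tested genes were lower and 29.2% higher. Against gilteritinib the shares of all tested genes were 30.3% and 30.1%. Among the factors that fell were SDHAF3, a complex II factor, at 7.29, 7.50 and 6.52 CPM in the combination and 20.9, 15.8 and 21.2 CPM with DMSO (-1.43 ± 0.17, edgeR adjusted p = 1.68e-06), COA7 (-1.13 ± 0.12) and COA4 (-1.03 ± 0.14), both complex IV factors. Those that rose against DMSO included COA1 (0.71 ± 0.12), COX20 (0.70 ± 0.15) and NDUFAF5 (0.67 ± 0.18). Of 18 genes of the tricarboxylic acid cycle and pyruvate dehydrogenase, 6 fell and none rose against DMSO and 12 fell and none rose against gilteritinib (9 without combination 2 or 3, and 6 with total counts), with DLAT at -0.88 ± 0.11, MDH2 at -0.55 ± 0.12 and IDH3A at -0.46 ± 0.12 against DMSO. In the list of coenzyme Q synthesis and cytochrome c, 3 of 13 fell and 5 rose against DMSO: CYCS, the electron carrier between complexes III and IV, had 63.2, 61.1 and 58.3 CPM in the combination and 125, 102 and 123 CPM with DMSO (-0.93 ± 0.11, adjusted p = 2.05e-06), PDSS1 changed by -0.58 ± 0.16 and COQ6 by 0.60 ± 0.14. With gilteritinib against DMSO, 2 assembly factors fell and none rose (9 and 10 with the block), 1 cycle gene rose and none fell (6 and 1), and 4 coenzyme Q genes rose and none fell (7 and 0).

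**Figure D5:**
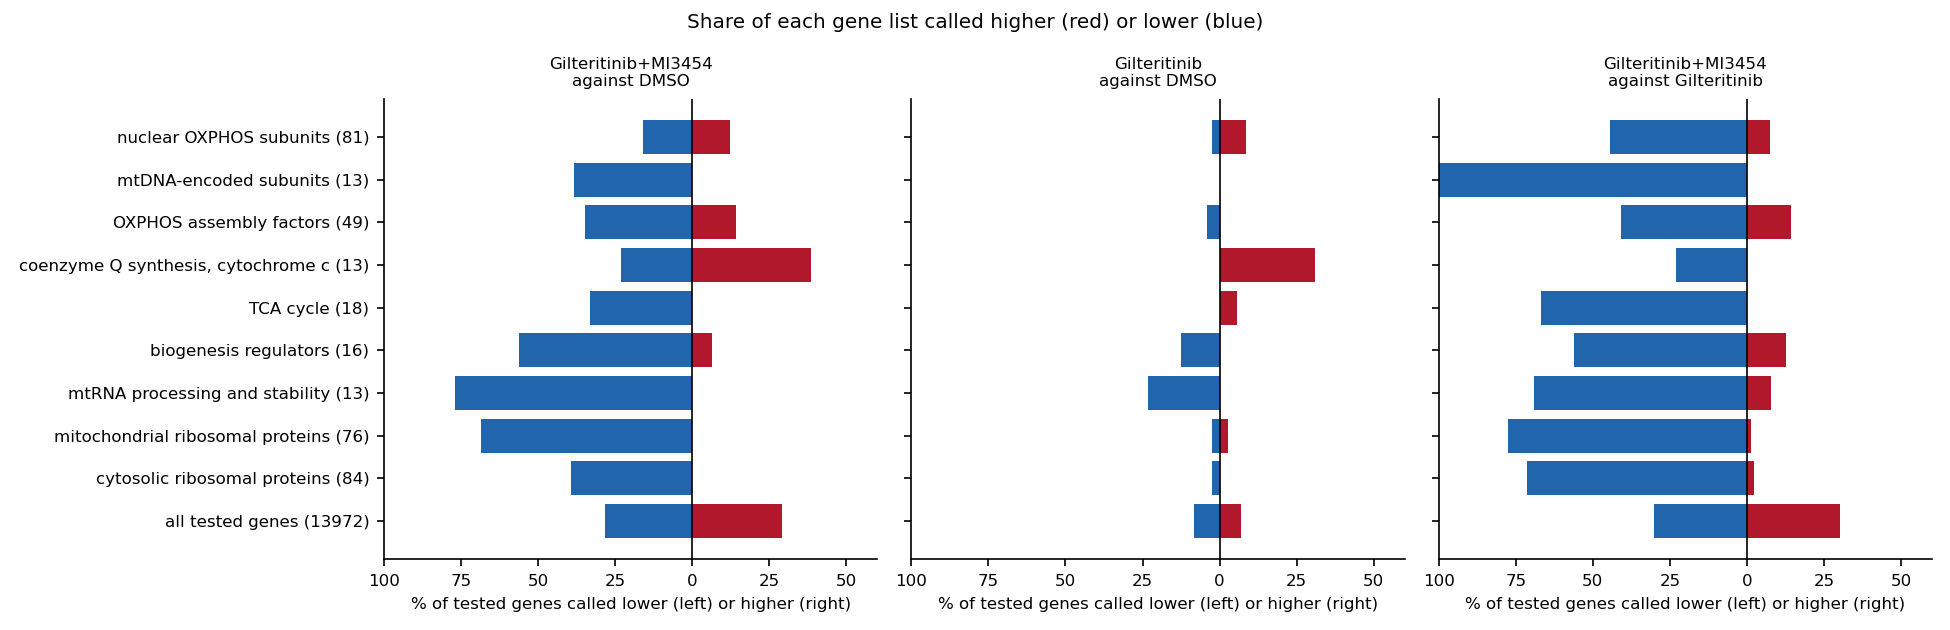
Share of tested genes (x axis, %) called lower (blue, left) or higher (red, right) in each list (y axis, number tested in brackets) for 3 comparisons. Mitochondrial ribosomal protein genes have 52 of 76 lower in the combination against DMSO and the nuclear OXPHOS subunits 13 of 81.

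Among regulators of mitochondrial biogenesis, 9 of 16 tested genes were lower and 1 higher in the combination than with DMSO (28.4% and 29.2% of all tested genes). MYC had 205, 179 and 160 CPM in the combination, 436, 500 and 449 CPM with gilteritinib, 460, 452 and 523 CPM with MI3454, and 654, 798 and 648 CPM with DMSO, and every treated library lay below every DMSO library (combination -1.95 ± 0.13, edgeR adjusted p = 1.34e-09). TWNK, the mitochondrial DNA helicase, changed by -1.64 ± 0.12, TFB2M, a mitochondrial transcription factor, by -1.26 ± 0.15, and TFAM, which packages mitochondrial DNA, by -0.74 ± 0.14. The coactivator PPARGC1B rose by 0.79 ± 0.10, at 85.1, 93.1 and 93.3 CPM in the combination and 51.4, 51.0 and 54.9 CPM with DMSO, and PPARGC1A was at most 0.121 CPM in any library and was not tested. Of the factors whose products act at OXPHOS promoters, GABPB1, a subunit of GABP, and YY1 fell (-0.84 ± 0.15 and -0.39 ± 0.10, edgeR adjusted p = 0.000142 and 0.00351), while NRF1 (-0.28 ± 0.12, adjusted p = 0.0599), GABPA, the DNA-binding subunit of GABP (-0.20 ± 0.15), and ESRRA (0.23 ± 0.12) did not pass. Of 13 genes of mitochondrial RNA processing and stability, 10 were lower and none higher, with PNPT1 at -1.12 ± 0.12, TRMT10C at -1.10 ± 0.14 and LRPPRC at -1.01 ± 0.12. With gilteritinib against DMSO, 2 of the regulators fell and none rose (5 and 0 with the block), and 3 RNA processing genes fell and none rose (7 and 0 with the block).

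Many members have short transcripts: their median principal transcript was 1082 bases, against 3123 bases for 11487 tested protein-coding genes. Not all are short, and the lengths ran from 305 bases for ATP5MF to 13566 bases for SDHC. Over the 81 members, Pearson's r between log2 change and log2 transcript length was -0.24 for gilteritinib against DMSO, 0.21 for the combination against gilteritinib and 0.28 for the interaction, across genes that share the same libraries. With an offset for transcript length in the fit, gilteritinib against DMSO gave 9 higher and 2 lower (7.75% and 8.82% of all tested genes). With the block added it gave 31 and 5 (17.4% and 17.1%). The members' median was 0.13, against 0.20 without the offset. The combination against gilteritinib gave 8 higher and 38 lower (29.8% and 31.7% of all tested genes). The interaction gave 1 higher and 5 lower (7.16% and 8.8%), and its median was -0.20, against -0.29 without the offset.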

How the data were processed

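RNA of 12 MOLM-13 libraries, 3 in each of 4 treatments, was analysed. The authors deposited whole-number counts of reads per gene, 1 table per library, with no normalization. Per the submitters' processing notes, the tools were cutadapt 2.1, STAR 2.7.1a, HTSeq 0.11.2 and DESeq2 on GRCh38; neither the gene annotation nor whether counting used strand is stated there. The 5 summary rows were left out. Gene symbols were matched by gene ID, and coordinates, biotypes and transcript lengths came from GENCODE release 29. Groups and replicate numbers came from the titles. Treatment labels of most libraries with MI3454, alone or combined, carry another compound number than the titles. The titles were followed.

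Genes passing edgeR's filterByExpr were tested with edgeR 4.0.16 (R 4.3.3), TMM scaling and the quasi-likelihood test, 1 fit per pair of groups (6 libraries), with p adjusted over all 13972 genes and called under 0.05. SE is the size of the log2 change over the root of its F statistic. The code was tested on simulated data. Alternatives were DESeq2 size factors, total counts, no filter, DESeq2 1.42.0, all 12 libraries in 1 fit, the replicate block, a transcript length offset, and leaving out libraries. Deviations from group means of same-numbered gilteritinib and DMSO libraries correlated at 0.18, 0.46 and 0.14 across genes. The block is given on that basis, which rests on the data and not on the labels. Gilteritinib 1 with DMSO 3 (0.26) and gilteritinib 3 with DMSO 1 (0.13) correlated about as much, so the numbers do not single out pairs 1 and 3. Pair 2 joins the libraries highest in RN7SL1 of their groups, and such libraries also correlated where their numbers differed. Named members were up to 2 called members per complex and direction with the largest change against DMSO, up to 4 per direction against single agents and for the interaction, complex II, CYC1, ATP5IF1 and the isoform sets, and up to 3 called genes per companion list with the largest change, with MYC, NRF1, GABPA, TFAM, ESRRA, PPARGC1A and PPARGC1B. Any other gene named was chosen after its values were seen. Members and lists were chosen with earlier results of these data known. Values of 1 member and 1 marker are not reported here.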

Additional observations from a re-analysis of the deposited data

Results flagged for a closer look

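For 3 members the effect of adding MI3454 differed with and without gilteritinib, by the interaction test over 12 libraries. ATP5PF had an interaction of -0.74 on the log2 scale, NDUFA6 of -0.69 and ATP5MC3 of -0.41. The ATP5PF call was lost without DMSO 3, gilteritinib 2, MI3454 1, combination 2 or combination 3. The NDUFA6 call was lost with the replicate block and without DMSO 1, DMSO 3, gilteritinib 1, gilteritinib 2, MI3454 3, combination 2 or combination 3. The ATP5MC3 call was lost with total counts, without a filter, with the block, and without any library except DMSO 2, MI3454 2 or combination 1.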

How the results depend on the processing

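No named member changed sign past the test under any alternative. Counts that moved by over 1.5 times are given as higher then lower members. Brackets give the share of all genes tested in that fit, where it is not given above. For the combination against DMSO (10 and 13), total counts gave 16 and 4, no filter 4 higher (15.3%), and leaving out the 4 libraries highest in RN7SL1 20 lower. With 1 library left out the ranges were 5 to 17 and 3 to 17. For gilteritinib against DMSO (7 and 2), no filter gave 21 higher (4.91%), DESeq2 12 (6.85%) and the replicate block 40. The block with the length offset gave 31 and 5, and leaving out the 4 libraries 30 and 4. The ranges were 1 to 28 and 1 to 4. For MI3454 against DMSO (0 and 0), no filter (5.82%), DESeq2 (9.64%), the length offset (10.8%) and leaving out the 4 libraries each gave 1 higher. The ranges were 0 to 1 and 0 to 0. For the combination against MI3454 (1 and 2), total counts gave 4 and 1, no filter 2 and 4 (7.17% and 8.72%), and all 12 libraries 2 and 4 (15.1% and 16.5%). The replicate block gave 1 lower, the length offset 4 lower (16.7%), and leaving out the 4 libraries 11 and 7. The ranges were 1 to 12 and 1 to 4. For the combination against gilteritinib (6 and 36), total counts gave 13 higher; the ranges were 6 to 8 and 23 to 40. For the interaction (0 and 3), total counts gave 1 higher (7.97%), no filter 1 and 13 (3.42% and 4.44%), and DESeq2 5 lower (8.35%). The replicate block gave 1 lower, the length offset 1 and 5, and leaving out the 4 libraries 1 and 16. The ranges were 0 to 1 and 0 to 10. The cause of these moves was not tested.

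Outside gilteritinib against DMSO the replicate numbers did not mark pairs: same-numbered correlations were -0.09, -0.08 and 0.24 for the combination against DMSO, 0.25, -0.36 and -0.45 for MI3454 against DMSO, -0.10, 0.06 and -0.31 for the combination against MI3454, and -0.15, -0.06 and 0.11 for the combination against gilteritinib. There the block gave 10 and 10, 0 and 0, 1 and 1, and 6 and 35 members. Depth limits the low members: NDUFA7 rests on 160 counts and NDUFV2 on 437, and 9 members were too low to test.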
